A study of Mus musculus with 87 samples.

Results

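The comparison described here set the livers of unoperated mice at Zeitgeber Time (ZT) 6 against those of unoperated mice at ZT2, 2 hours of the light and fasting phase, with ZT0 at lights on. The ZT6 livers were the 3 control livers labelled 4 hrs (C4, replicates 1 to 3), and the ZT2 livers were 3 of the 9 control livers labelled 0 hr (C0, replicates 7 to 9), so that 6 libraries of the 80 analysed entered the comparison. The C0 triplicate 7 to 9 was picked because its values resembled C4 most and because it likely came from the same experimental period, so the number of genes that differed between these 6 livers was in part set by that choice. Every mouse of both groups was a 12- to 14-week-old C57BL/6 male, entrained to light and dark cycles with food given only in the dark, and untreated. Each library came from 1 liver, and the study's methods state for operated mice that groups of 3 were killed together. The p values below rest on the spread between single livers within each condition, pooled over all 80 libraries, most of them from operated mice. Some conditions joined more than 1 set of 3 replicates, so this spread holds part of the difference between sets. The livers of C4, and those of C0 replicates 7 to 9, may have been collected together. For these 6 livers the spread between days was not measured. The series as a whole followed the liver after partial hepatectomy (PH) or sham surgery, both performed at ZT2. C4 served there as the unmanipulated control of the livers collected 4 h after surgery.

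In liver cells the circadian clock is a loop of transcription factors. The activators BMAL1 (gene Arntl) and CLOCK, or its relative NPAS2, bind E-box sequences and switch on the genes of their own repressors, the PER and CRY proteins, and of the nuclear receptors REV-ERBα and REV-ERBβ (Nr1d1 and Nr1d2), which in turn repress Arntl, Npas2 and Nfil3. A further arm, made of the PAR-domain activators DBP, TEF and HLF and their competitor NFIL3, passes the rhythm on to genes of metabolism through D-box sequences. In a nocturnal animal fed at night the light phase is the time of rest and fasting, when the REV-ERB genes and then the PAR-domain genes are switched on and Arntl is switched off.

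Transcript levels were read as log2 RPKM, the log2 of the read count scaled to the length of the exons and to the depth of the library. The depth estimated from the step of 1 read was 20.1 to 23.4 M reads in the 6 libraries and 25.5 to 34.4 M reads in C0 replicates 1 to 6. All 6 hepatocyte markers found in the table were present in every one of the 6 livers, at a summed level of 44520 to 50600 RPKM, and 7 of 8 pancreas acinar markers were at 0 in all 6. Across the 15396 genes tested, Pearson correlations between libraries ran from 0.984 to 0.989 within C4 and from 0.981 to 0.985 within C0 7 to 9. They ran from 0.980 to 0.988 between C4 and C0 7 to 9, and from 0.966 to 0.978 between C4 and the other C0 livers. Since C0 7 to 9 was picked for its likeness to C4, these values describe the choice.

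Single livers stood apart in ways that neither label explains. C0 replicate 8 carried a summed level of 148.2 RPKM over 7 Kupffer cell and macrophage markers and 52.2 RPKM over 6 neutrophil markers, whereas the other 5 livers carried 24.5 to 40.4 RPKM and 1.05 to 4.93 RPKM. The 20 acute phase genes were also highest in C0 replicate 8, at 22620 RPKM against 8673 to 16050 RPKM in the other 5. C0 replicate 7 had the highest summed levels of the 23 unfolded protein response genes, at 2282 RPKM against 1227 to 1413 RPKM, and of the 18 heat shock genes, at 1129 RPKM against 627.6 to 803.5 RPKM. The part of these livers in the results below was not tested beyond leaving each out in turn. In whole liver, fewer cells of a type and less RNA per cell cannot be told apart.

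A gene was called when its adjusted p (limma, Benjamini-Hochberg method) was below 0.05 and its difference went beyond 0.5 in either direction. Differences are of log2(RPKM + 0.25), so for genes of low level they are smaller than the true change. Between ZT2 and ZT6, 201 of 15396 genes were called (1.31%), of which 172 were higher (1.12%) and 29 lower (0.188%) at ZT6. Few of these differences were large. Beyond 1 on the log2 scale stood 41 genes that rose and 16 that fell, and the median difference was 0.72 among the genes that rose and -1.05 among those that fell. All 3 ZT6 livers stood above all 3 ZT2 livers for 156 of the 172 genes and below them for 23 of the 29, while 17.2% of all tested genes stood above, 2.18% below and 19.4% either way. These are the livers on which the calls rest, so nothing is read from the counts. Against all 9 C0 livers, 85 and 17 of these genes still showed no overlap, while 1034 of all tested genes (6.72%) showed none. The median difference of all tested genes was 0.11, and once each library was scaled to a common median 66 genes passed (0.429%), 32 higher and 34 lower. The share of higher genes among the calls was thus 85.6% before and 48.5% after scaling. Of the calls before scaling, 32 of the 172 rises and 24 of the 29 falls were also called after it. Without C0 replicate 8, the liver with the macrophage and neutrophil markers, 390 genes were called, 180 of them among the 201. Without C0 replicate 9, 74 were called, 53 of them among the 201, and without C0 replicate 7, C4 replicate 2 or C4 replicate 3 the counts were 104, 92 and 130.

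**Figure D1:**
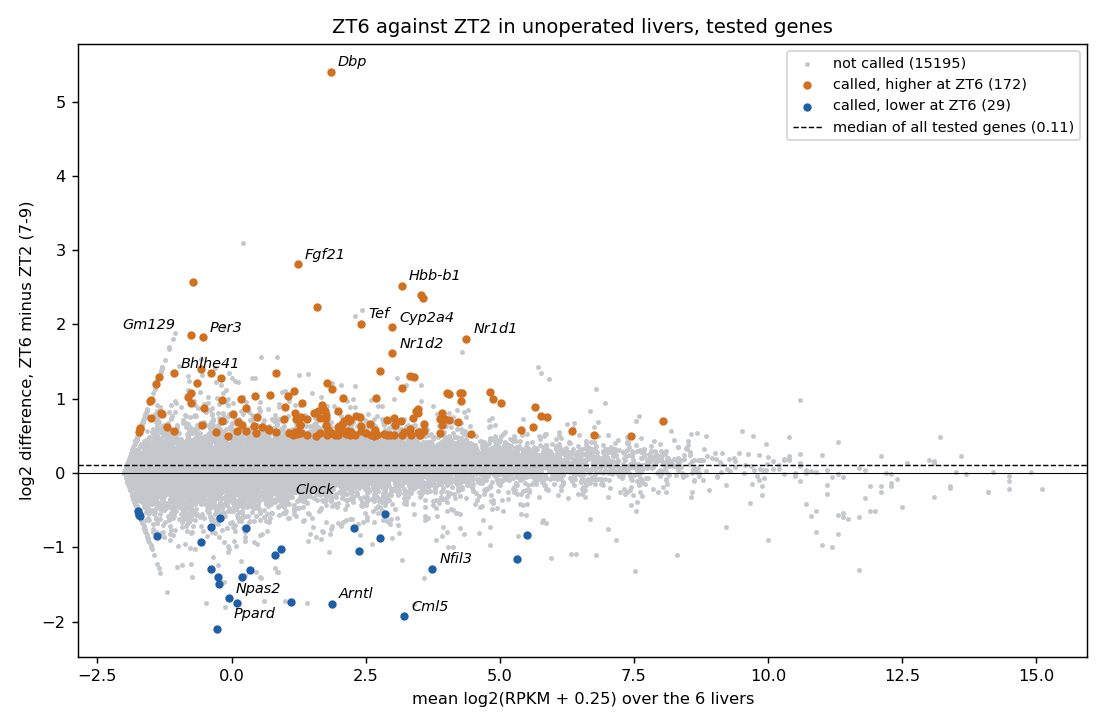
Log2 difference between the 3 ZT6 livers and ZT2 livers 7 to 9 (y axis, log2(RPKM + 0.25)) against the mean level of the 6 livers (x axis, same scale), 1 point for each of the 15396 genes tested. Coloured points are the 172 genes called higher and the 29 called lower, and the dashed line is the median of all genes at 0.11. Dbp, at 5.40, lies apart from all other genes.

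The core clock was the list with the most calls. Of its 19 genes, all of which passed the filter on low values, 12 were called (63.2%), 9 higher and 3 lower, and the median difference was 0.83 beside 1.31% and 0.11 over all genes. After that scaling 10 of the 19 were called, 7 higher and 3 lower. Against all 9 C0 livers, with the set of 3 as a random effect, 8 were called, and with the spread taken from the 6 livers alone 0 were called by limma. Without C4 replicate 3, 8 were called.

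Dbp, the founding PAR-domain activator and a direct target of BMAL1, stood at 5.01, 3.06 and 5.52 log2 RPKM in ZT6 replicates 1, 2 and 3 and at -2.62, -1.34 and -1.34 in ZT2 replicates 7, 8 and 9. The gene (chr7:52960458-52965525, mm9) was lower in every ZT2 liver than in any ZT6 liver, and its difference of 5.40 ± 0.38 (SE), a 42.1-fold rise on the log2(RPKM + 0.25) scale, was the largest of all genes tested (adjusted p = 3.85e-17). Its relative Tef (chr15:81632851-81657291) stood at 3.43, 2.80 and 3.90 at ZT6 and at 1.08, 1.54 and 1.15 at ZT2. The rise of 2.01 ± 0.28 on the log2 scale was smaller, from a higher starting level (adjusted p = 2.41e-06). Hlf, the third member of the family, stood at 2.49, 2.01 and 2.48 against 1.29, 1.51 and 1.504 and rose by 0.83 ± 0.24 (adjusted p = 0.0438). The ZT6 levels of Hlf overlapped those of C0 replicates 1 to 6, and the gene was not called after scaling (adjusted p = 0.176). The call of Hlf was lost without any one of C0 7, C0 9, C4 1, C4 2 and C4 3 (0.76 to 0.99, adjusted p from 0.0524 to 0.139).

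The REV-ERB receptors also rose. Nr1d1 (chr11:98629246-98636647), for REV-ERBα, stood at 5.56, 4.80 and 5.45 log2 RPKM at ZT6 and at 2.14, 4.24 and 3.92 at ZT2, a difference of 1.81 ± 0.48 (adjusted p = 0.0309). Replicate 7 held the lowest of the 3 ZT2 levels, and the 9 C0 livers spread more widely for this gene than for any other clock gene but Per1 and Gm129, from -0.92 through a median of 2.50 to 4.24. All 3 ZT6 livers were nonetheless above all 9. Its relative Nr1d2 (chr14:19036568-19071641) stood at 3.80, 3.51 and 3.98 at ZT6 and at 1.58, 2.38 and 2.34 at ZT2 (difference 1.61 ± 0.28, adjusted p = 0.000477), with the 9 C0 livers between 1.01 and 2.38. After scaling Nr1d2 remained called and Nr1d1 was not (adjusted p = 0.0774). The call of Nr1d1 was lost without any one of C0 7, C0 9, C4 1 and C4 3 (1.18 to 2.04, adjusted p from 0.055 to 0.249).

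Among the repressors that act on BMAL1 and CLOCK, Per3 had the smallest adjusted p. The gene (chr4:150377761-150418774) stood at 0.29, -1.08 and 0.86 at ZT6 and at -3.33, -2.69 and -3.37 at ZT2, and the rise of 1.83 ± 0.20 (adjusted p = 6.27e-09) cleared the highest of the 9 C0 livers, at -2.52. Gm129 (chr3:95682426-95686174), the gene of the repressor CHRONO (RefSeq symbol Ciart), stood at 0.22, -1.85 and 0.74 and -4.70, -4.01 and -3.60 and rose by 1.86 ± 0.42 (adjusted p = 0.0104), although C0 replicates 4 to 6 averaged -1.40 and overlapped ZT6. Cry2, for a cryptochrome, stood at 2.25, 1.51 and 2.05 and 0.85, 1.05 and 1.19 and rose by 0.83 ± 0.17 (adjusted p = 0.00331), and it also overlapped the other C0 livers. Bhlhe41, for the E-box repressor DEC2, was low at both hours, at -0.43, -3.42 and -0.003 and -3.27, -5.48 and -5.48, and rose by 1.34 ± 0.27 (adjusted p = 0.0032) with 1 ZT6 liver inside the ZT2 range. The calls of Gm129 and Bhlhe41 were lost without C4 replicate 3, at 1.48 (limma, adjusted p = 0.0981) and 0.97 (limma, adjusted p = 0.0723).

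The clock genes that fell were Arntl, Npas2 and Nfil3. Arntl (chr7:120350979-120457636) stood at 0.69, 1.56 and 0.10 log2 RPKM at ZT6 and at 2.78, 2.80 and 2.51 at ZT2, a fall of 1.76 ± 0.23 (adjusted p = 5.12e-07), and every one of the 9 C0 livers, the lowest at 2.51, lay above the highest ZT6 liver. Npas2 (chr1:39250576-39420079) stood at -1.96, -1.38 and -2.13 and 1.00, 0.31 and 0.37 and fell by 1.69 ± 0.26 (adjusted p = 4.15e-05). Nfil3 (chr13:53062578-53076442), for the repressor that competes with the PAR-domain factors for D-boxes, stood at 2.90, 3.75 and 2.52 and 4.60, 4.40 and 4.12 and fell by 1.29 ± 0.24 (adjusted p = 0.00124). For these 3 genes the 3 ZT6 livers lay below all 9 C0 livers, and all 3 remained called after scaling.

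The other clock genes were not called. Clock, the partner of Arntl, stood at 1.31, 1.66 and 1.25 at ZT6 and at 1.49, 1.58 and 1.14 at ZT2, with a difference of 0.00 ± 0.13 (adjusted p = 1.00). Cry1, the second cryptochrome, stood at 1.23, 1.74 and 1.04 and 2.39, 2.16 and 1.89 (difference -0.75 ± 0.26, adjusted p = 0.103), and its ZT6 livers lay below all 9 C0 livers. Further differences were 0.97 ± 0.30 for Bhlhe40, 0.87 ± 0.38 for Per1, 0.64 ± 0.33 for Per2 and -0.04 ± 0.18 for Rora, with the livers of both hours overlapping for each (adjusted p from 0.0722 for Bhlhe40 to 0.977 for Rora). Rora encodes a ROR receptor, an activator of Arntl from the sites that the REV-ERBs repress. The 7 members of the list of kinases and ubiquitin ligases that act on PER and CRY proteins, such as Csnk1d, Csnk1e and Btrc, gave 0 calls by limma at an adjusted p below 0.05, with differences from 0.01 to 0.31. Of these 7, 1 gene stood at an unadjusted p under 0.05, beside 2623 of all 15396 tested genes.

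**Figure D2:**
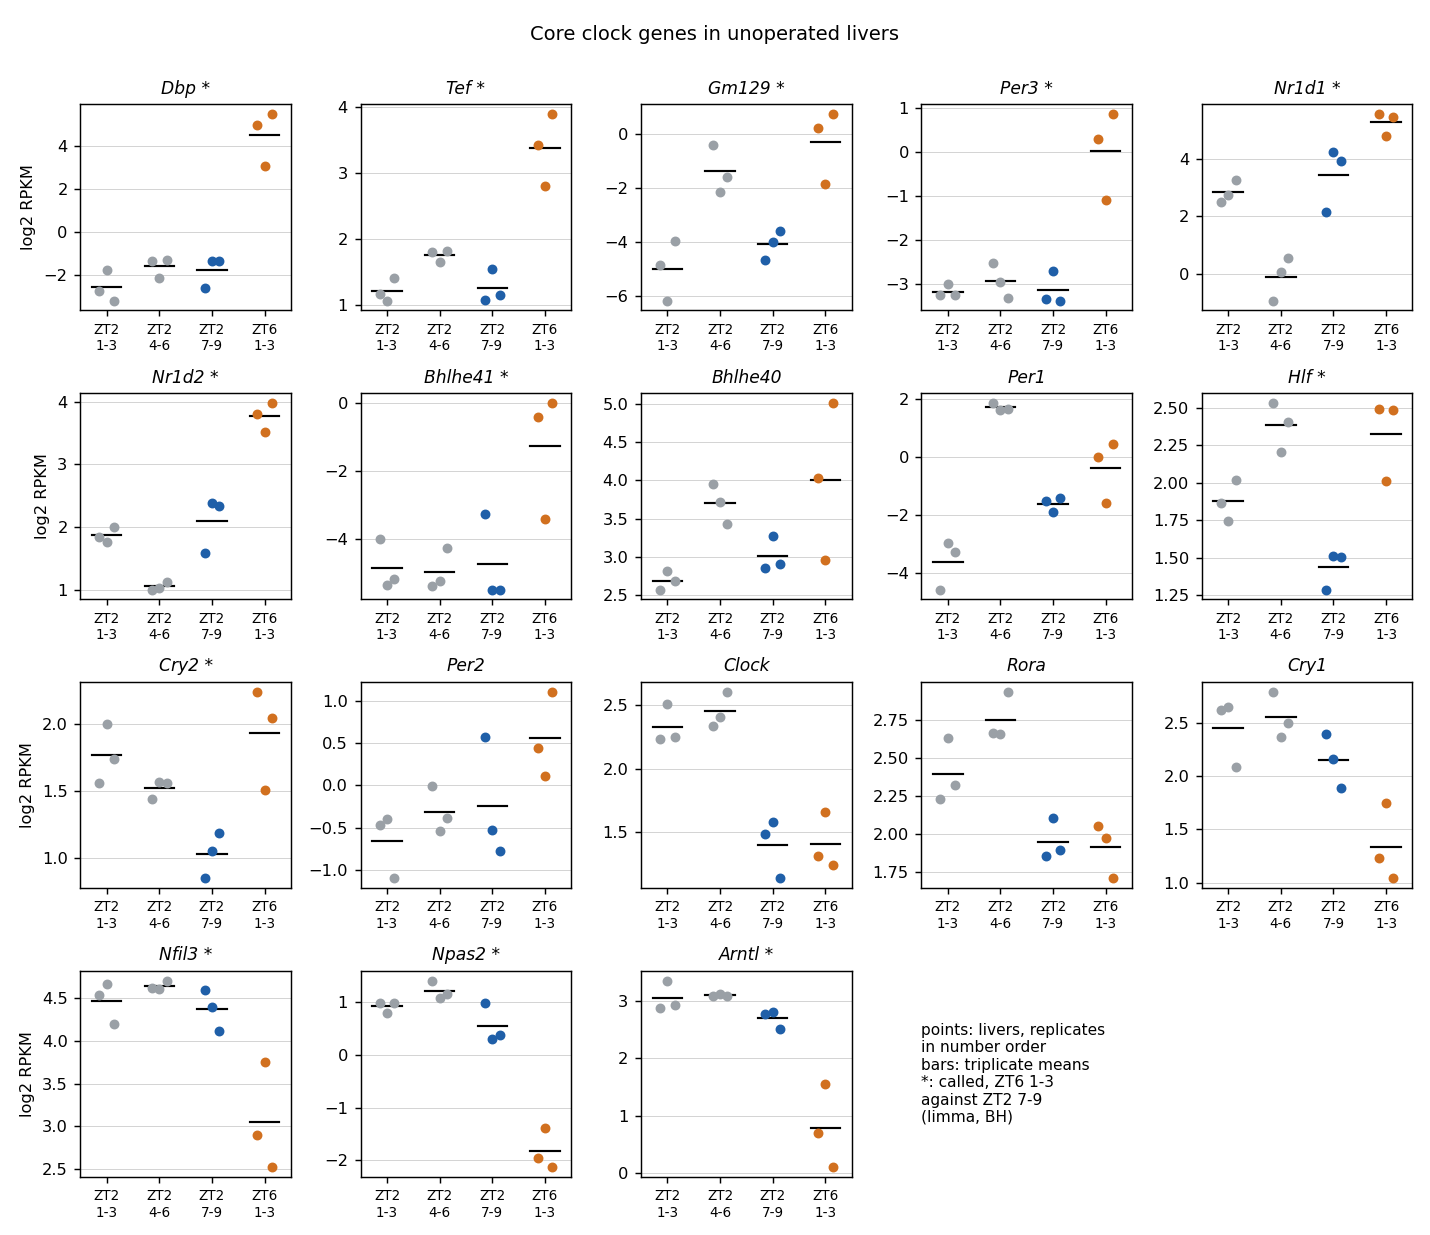
Log2 RPKM (y axis) of 18 of the 19 core clock genes in the 12 unoperated livers at ZT2 (C0 1-3, 4-6 and 7-9) and ZT6 (C4 1-3), ordered by the difference between ZT6 and ZT2 7-9, with 1 point for each liver and a bar at the mean of each triplicate. Asterisks mark the 12 called genes. For Dbp, Tef, Per3, Arntl, Npas2 and Nfil3 the 3 C0 triplicates lie close together and ZT6 apart, whereas for Nr1d1, Per1 and Gm129 the C0 triplicates differ among themselves.

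A single ZT6 liver stood nearest to ZT2 in every called clock gene. For each of the 12, C4 replicate 2 was the ZT6 liver nearest to the mean of the ZT2 livers 7 to 9, with a median distance of 1.03 on the log2 scale against 1.81 and 2.03 for replicates 1 and 3. Its Dbp level was 3.06 log2 RPKM where the other 2 livers had 5.01 and 5.52, and its Arntl level was 1.56 where they had 0.69 and 0.10. Over all 201 called genes the same liver was nearest to ZT2 for 61, against 88 for replicate 1 and 52 for replicate 3. Without C4 replicate 2 the clock differences were larger, at 6.12 for Dbp, 2.25 for Per3 and -2.10 for Arntl. Bhlhe40 was then called (1.48, limma, adjusted p = 0.00431) and Hlf was not (0.99, adjusted p = 0.0524), so that 12 of the 19 genes were again called.

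The promoters of the called clock genes were searched for the 3 sequence elements of the loop, and 5 that hold a match are shown here with the direction in which the gene moved. Sequences are from RefSeq (GRCm38.p6, a later assembly than the mm9 of the expression table), in windows from 250 bases before to 50 bases after each annotated start. Of the 19 clock genes, 16 matched an entry. The E-box CACGTG, which BMAL1 and its partners bind, occurred on either strand in the windows of 5 of these 16 genes. Among all genes it occurred in the windows of 2187 of 27025 genes, and in 7.15% of 32851 promoters, since a gene may have several. The core of the REV-ERB and ROR element was searched as TAGGTCA or TGGGTCA and the D-box as TTATGTAA or TTACGTAA, on both strands. They occurred in 1987 and 333 of the 27025 genes, and in 6.45% and 1.06% of all promoters. A match of letters is a description and not a site of binding. Capitals mark the E-boxes of Gm129 and Tef (higher at ZT6), the D-boxes of Per3 (higher) and the REV-ERB and ROR cores of Nfil3 and Arntl (lower), which in Nfil3 reads on the other strand.
Gm129 (Ciart), chr3:95882229-95882378, - strand, upstream of the start: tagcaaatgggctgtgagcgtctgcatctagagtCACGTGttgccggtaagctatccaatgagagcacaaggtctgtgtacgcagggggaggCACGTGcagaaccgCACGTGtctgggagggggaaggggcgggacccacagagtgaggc
Tef, chr15:81802523-81802672, + strand, upstream of the start: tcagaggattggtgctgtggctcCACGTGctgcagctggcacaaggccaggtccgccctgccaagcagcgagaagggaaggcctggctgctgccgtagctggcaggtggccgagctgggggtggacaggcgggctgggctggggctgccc
Per3, chr4:151044766-151044895, - strand, upstream of the start: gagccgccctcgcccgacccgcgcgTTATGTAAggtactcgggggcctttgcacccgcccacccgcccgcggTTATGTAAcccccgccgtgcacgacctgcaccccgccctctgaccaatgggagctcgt
Nfil3, chr13:52981040-52981139, - strand, upstream of the start: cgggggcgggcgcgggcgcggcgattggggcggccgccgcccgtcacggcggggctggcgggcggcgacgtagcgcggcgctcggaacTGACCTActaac
Arntl, chr7:113207531-113207560, + strand, past the second annotated start: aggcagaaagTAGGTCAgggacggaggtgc
Of the 9 clock genes that rose, 3 (Tef, Bhlhe41 and Gm129) held an E-box, 1 (Per3) held D-boxes and 0 held the REV-ERB and ROR core. Of the 3 that fell, 2 (Nfil3 and Arntl) held the REV-ERB and ROR core, Npas2 held no match, and 0 held an E-box or a D-box in these windows. The windows of Dbp, Nr1d1, Nr1d2, Cry2 and Hlf held none of the searched letters. Among genes not called, Per1 and Cry1 each held an E-box.

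Outside the clock, the largest rises among the named genes that cleared all 9 C0 livers were those of Fgf21 and Cyp2a4. Fgf21, for a hormone of fasting made by the liver, stood at 1.33, 4.63 and 1.70 log2 RPKM at ZT6 and at -2.10, -0.62 and 0.44 at ZT2, a rise of 2.81 ± 0.75 (adjusted p = 0.032). C4 replicate 2 was by far the highest, and without that liver the difference was 1.81 (limma, adjusted p = 0.359). Without C0 replicate 7 it was 2.37 (limma, adjusted p = 0.146). The steroid hydroxylase gene Cyp2a4 stood at 3.91, 4.71 and 3.25 and 1.59, 2.02 and 2.17 and rose by 1.96 ± 0.52 (adjusted p = 0.0323). That call too was lost without any one of C0 7, C0 9 and C4 2 (1.59 to 2.08, adjusted p from 0.0902 to 0.25). Its near-identical neighbour Cyp2a5, which may share reads with it, differed by 1.13 ± 0.53 (adjusted p = 0.259).

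Other genes outside the clock rose by less, and among those given here Tenc1 had the smallest SE. Tenc1, for the adhesion protein tensin 2, stood at 4.00, 3.98 and 4.07 at ZT6 and at 2.72, 2.75 and 2.62 at ZT2, so that the livers of each hour lay close together, and rose by 1.29 ± 0.21 (adjusted p = 0.000107). Pla2g12a, for a secreted phospholipase, stood at 3.57, 3.52 and 3.19 and 1.64, 2.16 and 2.20 and rose by 1.37 ± 0.22 (adjusted p = 0.000107). Rdh9, of the retinol dehydrogenase family, rose by 1.31 ± 0.28 (adjusted p = 0.00653) from 1.92, 3.22 and 2.66 to 4.12, 3.87 and 3.85. Slc20a1, for a sodium-dependent phosphate transporter, rose by 1.21 ± 0.26 (adjusted p = 0.00829) from 1.09, 1.17 and 0.74 to 2.13, 2.09 and 2.71. The transducin gene Gnat1, best known from rod photoreceptors, rose by 1.34 ± 0.37 (adjusted p = 0.0397) from -0.08, 0.29 and -0.86 to 0.44, 2.01 and 1.61 and was not called after scaling. The call of Rdh9 was lost without C0 replicate 7 (0.99, adjusted p = 0.0918), that of Slc20a1 was lost without C0 replicate 9 (1.09, adjusted p = 0.0697) or C4 replicate 3 (1.02, adjusted p = 0.0668) and that of Gnat1 was lost without any one of C0 7, C0 9, C4 2 and C4 3 (1.04 to 1.38, adjusted p from 0.0893 to 0.299). Chosen after their values were seen, Abcg5 and Abcg8, whose products together export sterols into bile, rose by nearly the same amount, 1.07 ± 0.26 and 1.08 ± 0.27 (adjusted p = 0.0179 and 0.0196). Both stood above all 9 C0 livers, and both calls were lost after scaling. The call of Abcg5 was also lost without any one of C0 7, C0 9 and C4 2 (0.78 to 1.07, adjusted p from 0.0714 to 0.158), and that of Abcg8 was lost without any one of C0 7, C0 9 and C4 2 (0.81 to 1.08, adjusted p from 0.08 to 0.162).

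Cml5 and Ppard were among the named genes with large falls outside the clock. Cml5, of the camello-like N-acetyltransferases (RefSeq symbol Nat8f5, chr6:85767215-85770966), stood at 2.25, 1.68 and 2.60 log2 RPKM at ZT6 and at 4.41, 3.80 and 4.29 at ZT2, a fall of 1.93 ± 0.41 (adjusted p = 0.00509). Its neighbour Cml3 (chr6:85710643-85715738) fell by 1.40 ± 0.31 (adjusted p = 0.00968) from 0.45, -0.79 and 0.71 to -1.28, -4.22 and -1.21. The relatives Cml1 and Cml2 in the same stretch of chromosome 6, chosen after their values were seen, differed by 0.08 ± 0.26 and -0.01 ± 0.13 (adjusted p = 0.938 and 1.00). Genes of this family resemble each other closely, so reads may be shared among them. Ppard (chr17:28369699-28438414), for a nuclear receptor of fatty acids, stood at 0.08, 0.18 and -0.61 and 2.21, 1.92 and 1.51 and fell by 1.74 ± 0.31 (adjusted p = 0.000643), with all 9 C0 livers at or above 1.51. The call of Cml5 was lost without C4 replicate 2 (-1.69, adjusted p = 0.0533) and that of Cml3 was lost without any one of C0 7, C0 9 and C4 2 (-1.28 to -1.02, adjusted p from 0.0619 to 0.179).

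Other genes with ZT6 levels below all 9 C0 livers fell as well. Loxl4, for a lysyl oxidase-like enzyme of the matrix, fell by 1.499 ± 0.41 (adjusted p = 0.0379) from 0.33, 0.32 and 0.09 to -2.38, -0.91 and -2.95. BC057022 fell by 1.31 ± 0.29 (adjusted p = 0.00968) and Ypel2 by 1.05 ± 0.28 (adjusted p = 0.0317). Pnrc1, for a coactivator of nuclear receptors, stood at 4.82, 5.10 and 4.26 and 5.78, 6.08 and 5.82 and fell by 1.16 ± 0.22 (adjusted p = 0.00147). A U6 small nuclear RNA gene on chromosome X (chrX:33903894-33903997) had no reads in C4 replicate 1. It stood at -0.21 and -1.07 log2 RPKM in the other 2 ZT6 livers and at 0.74, 0.43 and 1.16 at ZT2 (adjusted p = 0.0457). The table holds 940 genes of that symbol with near-identical sequences, so this value is uncertain. Its call was lost without any one of C0 7, C0 9, C4 1 and C4 3 (-1.90 to -1.13, adjusted p from 0.0729 to 0.236), that of Loxl4 was lost without any one of C0 7, C0 8, C0 9, C4 1 and C4 3 (-1.56 to -1.29, adjusted p from 0.0566 to 0.148), that of BC057022 was lost without C0 replicate 7 (-1.05, adjusted p = 0.0933) or C4 replicate 1 (-1.04, adjusted p = 0.0607) and that of Ypel2 was lost without any one of C0 7, C0 9 and C4 3 (-1.13 to -0.75, adjusted p from 0.0755 to 0.208). All 12 named falls, the clock genes included, remained called after scaling, whereas 4 of the 12 named rises (Fgf21, Cyp2a4, Nr1d1 and Gnat1) did not.

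Known rhythmic outputs of the liver moved in part. Of the 16 genes of that list 4 were called, all higher, beside 1.12% of all genes called higher, and the median difference was 0.43. The summed level of the list lay the other way, at 333.8 to 411.7 RPKM at ZT6, 426.1 to 517.3 RPKM in ZT2 livers 7 to 9 and 589.4 to 965.9 RPKM in the other C0 livers. Por, the electron donor of all microsomal cytochromes P450, stood at 5.19, 5.67 and 5.19 at ZT6 and at 4.05, 4.58 and 4.12 at ZT2 and rose by 1.09 ± 0.22 (adjusted p = 0.00321). Usp2, for a ubiquitin protease, stood at -0.41, -1.07 and 0.60 and -2.47, -2.69 and -2.69 and rose by 1.40 ± 0.32 (adjusted p = 0.0104). Wee1, for the kinase that holds back CDK1, rose by 1.08 ± 0.31 (adjusted p = 0.0493), and Gys2, for liver glycogen synthase, by 0.88 ± 0.23 (adjusted p = 0.0307). Only Gys2 among these 4 stood above all 9 C0 livers, at 6.26, 5.77 and 6.22 against 5.18, 5.07 and 5.34 and a highest C0 level of 5.34. Rgs16 (2.11, adjusted p = 0.084), Elovl3 (-1.32, adjusted p = 0.152) and Cdkn1a (-1.42, adjusted p = 0.0972) also had differences beyond 1 in size and did not pass. The call of Usp2 was lost without C0 replicate 9 (1.38, adjusted p = 0.0534) or C4 replicate 3 (1.05, adjusted p = 0.115), that of Wee1 was lost without any one of the 6 livers (0.87 to 1.31, adjusted p from 0.0513 to 0.205) and that of Gys2 was lost without any one of C0 7, C0 8, C0 9, C4 1 and C4 3 (0.80 to 0.96, adjusted p from 0.0582 to 0.108). Without C0 replicate 9 or C4 replicate 3, 1 of the 16 was called, and after scaling 1 (Usp2).

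Metabolic lists gave 1 or 2 calls each where they gave any, and 1.31% of all genes were called. In the list of fasting, fat oxidation and ketogenesis 1 of 30 genes (Fgf21) was called, while 27 of 30 differences were above 0, beside 69.4% of all tested genes, and the median was 0.32, beside 0.11. Without C0 replicate 8, 2 of the 30 were called, and without C0 replicate 7 or C4 replicate 2, 0 by limma. Ppara, for the receptor that drives the fasting response, differed by 0.89 ± 0.27 (adjusted p = 0.0586), and Cpt1a, for the gate of fatty acid entry into mitochondria, by 0.72 ± 0.23 (adjusted p = 0.0792) with all 3 ZT6 livers above the 9 C0 livers. The summed level of the list was 13190 to 15170 RPKM at ZT6, 8671 to 12540 RPKM in ZT2 livers 7 to 9 and 6260 to 10020 RPKM in the other C0 livers. In xenobiotic metabolism 2 of 21 genes were called (Cyp2a4 and Por), in glucose metabolism 1 of 22 (Gys2) and in ribosome biogenesis 1 of 20 (Gnl3, for nucleostemin, 0.74 ± 0.21, adjusted p = 0.0493). In cholesterol synthesis and uptake 1 of 23 was called, with a median difference of 0.07, and 0 were called by limma without any one of C0 7, C0 9, C4 2 and C4 3. The call of Gnl3 was lost without any one of C0 7, C0 9, C4 2 and C4 3 (0.63 to 0.76, adjusted p from 0.104 to 0.269). After scaling, 0 members of these 5 lists were called higher and 1 was called lower, in glucose metabolism. A high share of differences above 0 was not particular to the fasting list. It was 19 of 20 in ribosome biogenesis, 13 of 14 in cell division, 17 of 20 in urea cycle and amino acid breakdown and 17 of 21 in xenobiotic metabolism. In heat shock it was 6 of 18 and in acute phase 3 of 20.

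In 10 further lists limma called 0 genes at an adjusted p below 0.05. They were heat shock (18 genes tested, median difference -0.09), the cold-inducible RNA-binding proteins (2, 0.32), fatty acid synthesis (17, 0.23), bile acid synthesis and transport (12, 0.10), glucocorticoid-responsive genes (13, 0.17), immediate early genes (16, -0.12), acute phase (20, -0.22), unfolded protein response (23, -0.18), urea cycle and amino acid breakdown (20, 0.17) and cell division (14, 0.19). C0 replicate 7 was the highest of the 6 livers in the heat shock and unfolded protein response lists and C0 replicate 8 in the acute phase list, as given above. At an unadjusted p under 0.05 stood 4 genes of fatty acid synthesis, 3 glucocorticoid-responsive genes, 2 each of the bile acid, acute phase and unfolded protein response lists, 1 each of the heat shock, immediate early, urea cycle and cell division lists and 0 of the cold-inducible genes. Of all 15396 tested genes 2623 stood there, so nothing is read from these counts. With a liver left out, 1 gene was called in the unfolded protein response list without C0 replicate 8 (higher), in the glucocorticoid-responsive list without C4 replicate 2 (lower) and in fatty acid synthesis without C4 replicate 1 (higher). Lcn2, the acute phase gene with the widest difference, stood at -0.06, -0.47 and -0.18 at ZT6 and at -0.14, 5.64 and -0.77 at ZT2 (difference -1.73 ± 0.72, adjusted p = 0.191). Hspa5, for the chaperone BiP, stood at 7.44, 7.20 and 7.23 and 8.76, 7.36 and 7.27 (difference -0.51 ± 0.34, adjusted p = 0.46).

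**Figure D3:**
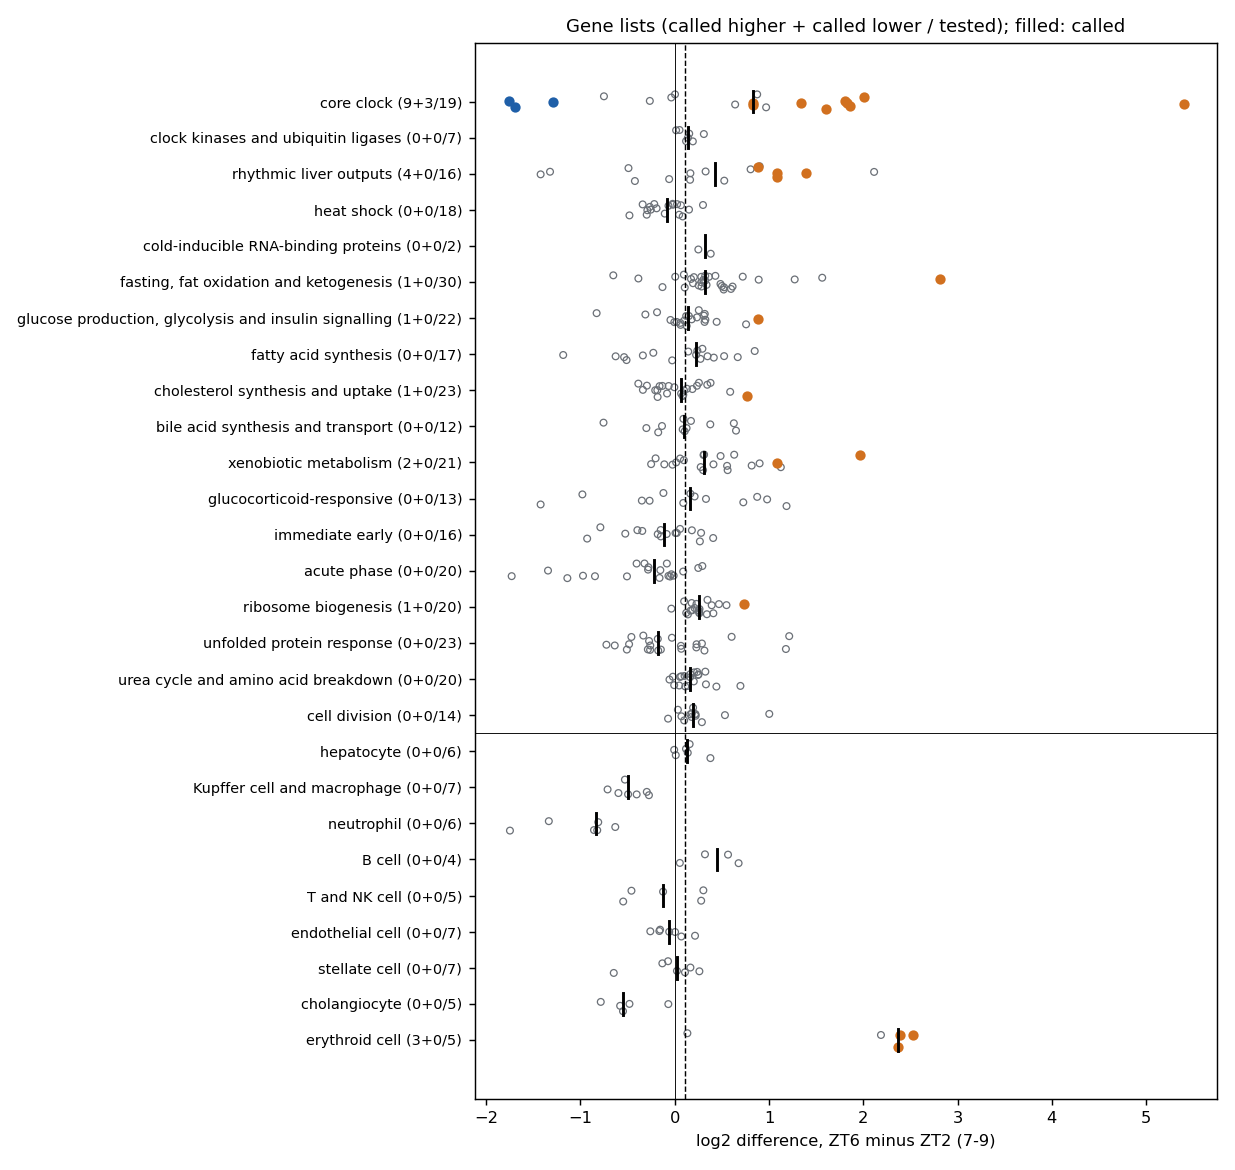
Log2 difference between ZT6 and ZT2 livers 7 to 9 (x axis) for the genes of each list with 2 or more tested, pathway lists above the line and cell type markers below it, with numbers called higher, called lower and tested in brackets. Filled points are called genes, bars are list medians and the dashed line is the median of all genes at 0.11. The core clock, at 12 of 19, stands apart among the pathway lists, and the globin genes among the markers.

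Of the cell type markers, only erythroid genes were called. Hbb-b1, Hba-a1 and Hba-a2, for haemoglobin chains, rose by 2.52 ± 0.67, 2.39 ± 0.66 and 2.36 ± 0.67 (adjusted p = 0.032, 0.0379 and 0.0431), with Hbb-b1 at 4.33, 4.85 and 4.05 log2 RPKM at ZT6 and at 1.26, 2.65 and 1.48 at ZT2. Hbb-b2 differed by 2.19 ± 0.68 (adjusted p = 0.0727) and Alas2, for the haem enzyme of red cell precursors, by 0.13 ± 0.27 (adjusted p = 0.87). The summed level of the 5 genes was 91.7 to 151.4 RPKM at ZT6, 38.0 to 56.0 RPKM in ZT2 livers 7 to 9 and 54.6 to 142.1 RPKM in the other C0 livers, so that C0 replicate 2 reached the ZT6 levels and the other 8 C0 livers did not. The Hbb-b1 call was lost without any one of C0 7, C0 9, C4 2 and C4 3 (2.27 to 2.70, adjusted p from 0.0551 to 0.174), that of Hba-a1 was lost without any one of C0 7, C0 9, C4 1, C4 2 and C4 3 (2.13 to 2.65, adjusted p from 0.0551 to 0.212) and that of Hba-a2 was lost without any one of C0 7, C0 9, C4 1, C4 2 and C4 3 (2.11 to 2.63, adjusted p from 0.0603 to 0.232). After scaling 0 erythroid genes were called, and the part of red cells left in the tissue was not tested. Both Hba genes are near-identical copies. Markers of macrophages (7), neutrophils (6), B cells (4), T and NK cells (5), endothelial cells (7), stellate cells (7), cholangiocytes (5) and hepatocytes (6) gave 0 calls by limma, as did the single tested markers of adipocytes and of skeletal muscle. At an unadjusted p under 0.05 stood 2 neutrophil markers, 1 each of B cells, T and NK cells, cholangiocytes, hepatocytes and adipocytes, and 0 of the others, beside 2623 of all 15396 tested genes. All markers of macrophages (median -0.49), neutrophils (-0.84) and cholangiocytes (-0.55) were below 0, and all of B cells (0.44) above 0. Those of T and NK cells, endothelial cells, stellate cells and hepatocytes went both ways. C0 replicate 8 held by far the highest macrophage and neutrophil sums of the 6 livers. The macrophage sum was 29.6, 40.4 and 34.4 RPKM at ZT6 and 27.8, 148.2 and 24.5 RPKM at ZT2. The neutrophil sum was 2.49, 4.93 and 1.05 RPKM at ZT6 and 4.88, 52.2 and 1.71 RPKM at ZT2. The 5 cholangiocyte markers had a summed level of 30.6 to 44.5 RPKM at ZT6 and 54.3 to 58.1 RPKM in ZT2 livers 7 to 9. In the other C0 livers it was 26.8 to 46.4 RPKM, a range that holds all 3 ZT6 levels.

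The other 2 ZT2 triplicates give the same hour in other livers. The 3 C0 triplicates share genotype, hour and handling in the labels, but the paper states that they came from 3 separate time periods. The labels do not say which triplicate came from which period. Between replicates 1 to 3 and 4 to 6, 695 genes were called (4.51%), with 2474 between 7 to 9 and 1 to 3 (16.1%) and 2520 between 7 to 9 and 4 to 6 (16.4%). Depth was also lower in replicates 7 to 9 (21.4 to 23.0 M reads) than in 1 to 6 (25.5 to 34.4 M reads). The part of period and depth was not tested. C4 differed from replicates 1 to 3 in 2569 genes (16.7%) and from replicates 4 to 6 in 2745 genes (17.8%). These comparisons with C4 share the same 3 ZT6 livers, and the low count against replicates 7 to 9 follows in part from how that triplicate was picked. C0 replicates 4 to 6 carried 1468 to 1509 RPKM over the glucocorticoid-responsive genes, against 273.4 to 471.8 RPKM in the other 6 C0 livers.

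Set side by side, some clock genes were called against each triplicate in the same direction and others were not. The difference of Dbp was 5.40 against replicates 7 to 9, 5.78 against 1 to 3 and 5.32 against 4 to 6. For Per3 it was 1.83, 1.84 and 1.76, for Tef 2.01, 2.05 and 1.55, for Arntl -1.76, -2.10 and -2.15, and for Npas2 -1.69, -2.003 and -2.27. These 5 genes were called each time. Nr1d1 was also called each time but spread from 1.81 to 2.39 and 5.02, with C0 means of 3.43, 2.84 and -0.10 log2 RPKM. Per1 changed sign, with 0.87 against 7 to 9 (not called), 1.64 against 1 to 3 and -1.74 against 4 to 6, both called. Usp2 likewise went from 1.40 and 1.30 to -1.35, called each time. Clock, at 0.00 against 7 to 9, was called lower at ZT6 against both others, at -0.87 and -0.98. Cry1 was called lower against both others as well, at -1.04 and -1.13.

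Operated livers gave the same pair of hours in other mice. After sham surgery, 5 livers at 4 h (S4, ZT6) were compared with 3 at 48 h (S48, ZT2), and after PH, 3 livers at 28 h (X28, ZT6) with 5 at 48 h (X48, ZT2), so that time since surgery differs along with the hour and the effects cannot be told apart. These comparisons called 3639 genes (23.6%) and 3726 genes (24.2%). Of the 29 genes that fell in unoperated livers, 18 were called lower in S4 and 15 in X28, and 0 were called higher in either, while 16.0% and 21.0% of all tested genes were called lower. Of the 172 genes that rose, 42 were called higher and 24 lower in S4, and 33 higher and 20 lower in X28, beside 7.63% and 3.24% of all tested genes called higher.

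Clock genes moved to different degrees between the same hours after surgery. Arntl fell by 1.21 ± 0.20 from S48 to S4 and by 2.38 ± 0.20 from X48 to X28, and Npas2 by 2.12 ± 0.23 and 2.22 ± 0.23, beside falls of 1.76 ± 0.23 and 1.69 ± 0.26 without surgery. Nr1d1 rose by 2.98 ± 0.43 and 3.19 ± 0.43, beside 1.81 without surgery, and Nr1d2 by 1.51 ± 0.25 and 1.44 ± 0.25, beside 1.61. All of these were called. Dbp rose by 1.08 ± 0.34 in the sham and 2.51 ± 0.34 in the PH comparison, and the difference from unoperated livers itself passed the test (4.31 and 2.89, limma interaction, adjusted p = 1.68e-08 and 1.04e-05). In levels, Dbp averaged 4.53 ± 1.29 log2 RPKM (SD, n = 3) in C4, -0.35 ± 0.73 (SD, n = 5) in S4, -2.17 ± 0.53 (SD, n = 3) in X4 and 1.77 ± 0.98 (SD, n = 3) in X28, all at ZT6, and 4.43 ± 0.16 (SD, n = 3) in S10 at ZT12. Per3 differed by -0.33 ± 0.18 in the sham comparison, where it was not called, against 1.83 without surgery (difference 2.15, limma interaction, adjusted p = 6.5e-08). Nfil3 fell by 1.25 ± 0.22 in X28 but differed by -0.23 ± 0.22 in S4, where it was not called (difference from unoperated livers -1.06, limma interaction, adjusted p = 0.0115). Dbp, Per3 and Nfil3 were also among the largest changes in unoperated livers, which favours unequal differences in this test.

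**Figure D4:**
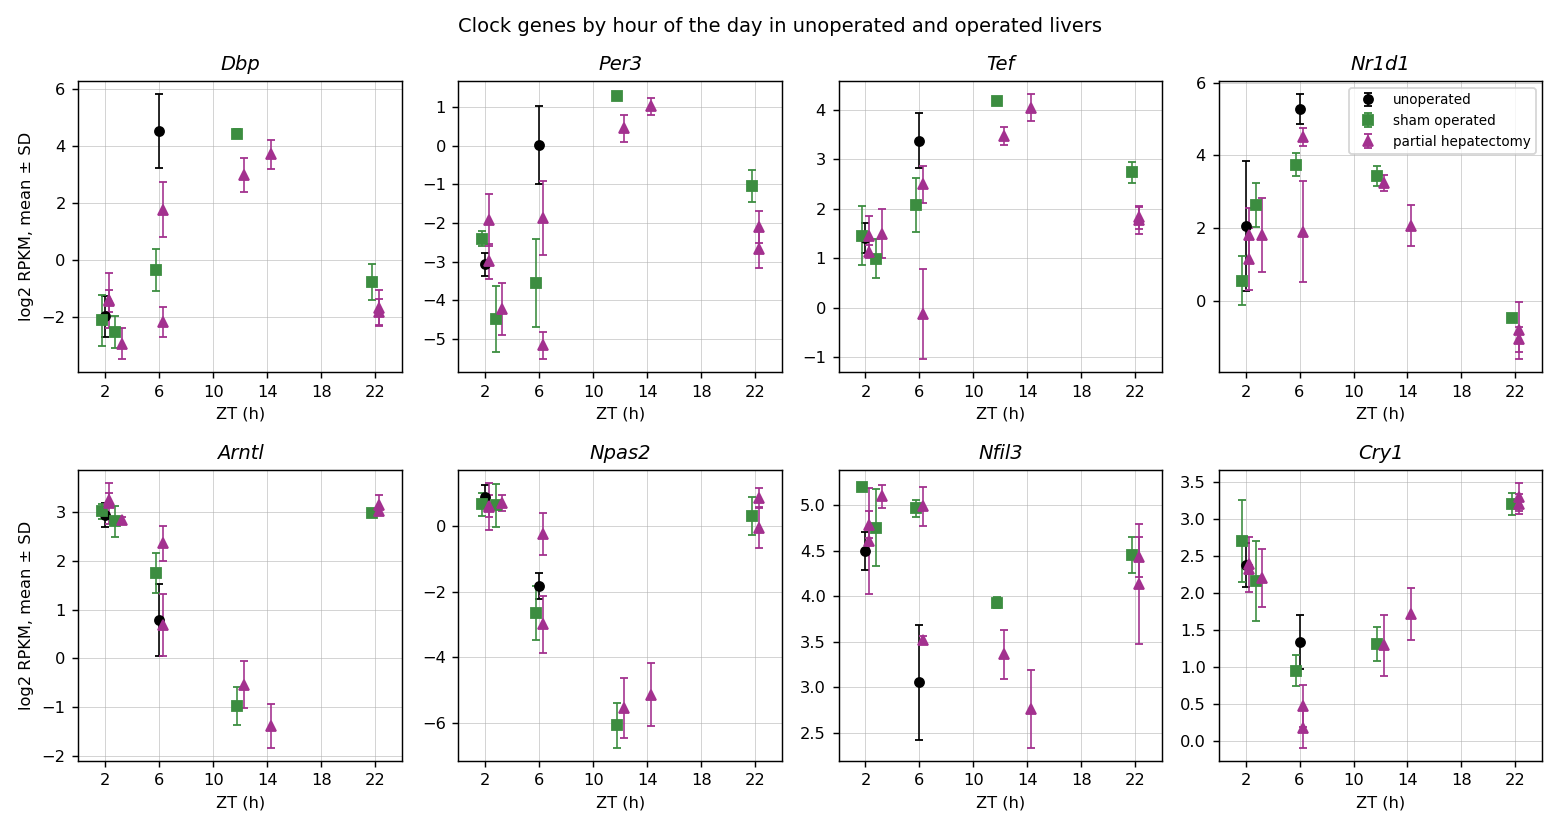
Mean log2 RPKM with SD (y axis) of 8 clock genes by hour of the day (x axis, ZT) in unoperated (C0 with 9 livers, C4 with 3), sham-operated and PH livers up to 72 h, 1 point for each group, shifted slightly by kind of surgery. At ZT6 the unoperated livers hold the highest Dbp, Per3, Tef and Nr1d1 of the groups at that hour.

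**Figure D5:**
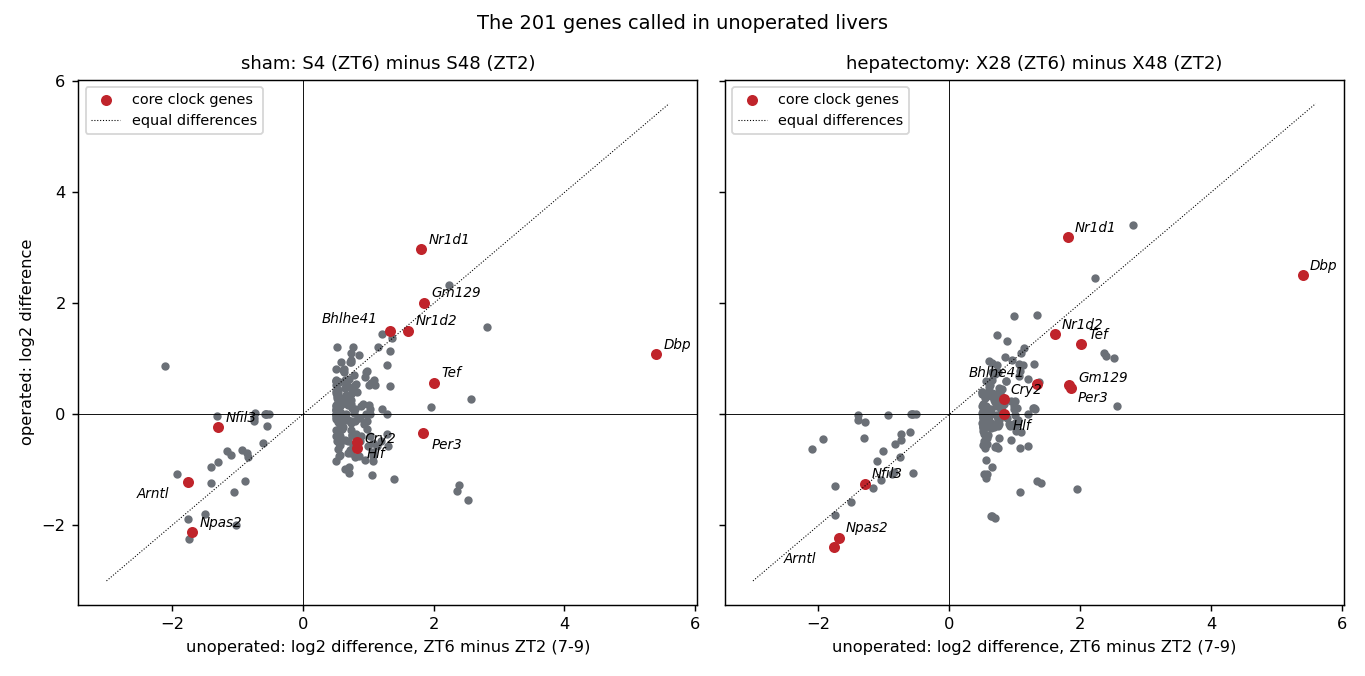
Log2 difference between ZT6 and ZT2 in sham (left) and PH livers (right, y axes) against that in unoperated livers (x axis) for the 201 called genes, with the 12 called clock genes in red and the line of equal differences dotted. Arntl, Npas2, Nr1d1 and Nr1d2 lie away from 0 on both axes in both panels, and Dbp lies far below the line.

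Over the means of all 19 conditions of the series, the genes whose log2 levels were most like that of Arntl were Npas2 (Pearson r = 0.956), Asap2 (0.944), Ypel2 (0.943), Clpx (0.908) and 1300002K09Rik (0.906). All of these had differences below 0 between ZT6 and ZT2 in unoperated livers, and Npas2, Ypel2 and Clpx were called, Clpx, for a subunit of a mitochondrial protease, at -0.84 ± 0.15 (adjusted p = 0.000572). Those most like Nr1d1 were Nr1d2 (0.798), Tenc1 (0.775), Eif2s3y (0.729), Acaa1a (0.721) and Mirlet7b (0.717), of which Nr1d2 and Tenc1 were called. The conditions share livers of the same hours and surgeries, and the correlations describe them only. C4 and C0 are among the 19 conditions, so a gene most like Arntl or Nr1d1 was favoured to share its direction between ZT6 and ZT2.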

How the data were processed

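RNA-Seq of poly(A) RNA was made strand-specifically from single mouse livers. The deposited table holds log2 RPKM per gene, which the authors made by trimming reads with Cutadapt and prinseq-lite, aligning them to mm9 with TopHat 2.0.13 and Bowtie2, and counting them per Ensembl 67 gene on the transcribed strand, with reads of several positions counted fractionally, so near-identical genes are uncertain. Genes without reads are listed at -14.29. Values were returned to RPKM and tested as log2(RPKM + 0.25) with limma 3.58.1 (R 4.3.3) in 1 fit of all 80 libraries with 21 coefficients and 59 residual degrees of freedom, over the 15396 genes above -1.5 log2 RPKM in at least 1 library, with Benjamini-Hochberg adjustment. The fit was tested on simulated data. Positions are mm9, for 37205 of 37991 genes. Besides these, 4 columns match no labelled sample and were not used, and 7 labelled samples were not analysed here.

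The members, gene lists and tests were chosen with earlier results of these data known. Named genes are the 12 largest rises and 12 largest falls among called genes whose mean log2 RPKM was above 0 at either hour, with no overlap with the 9 C0 livers, every core clock gene, up to 4 called genes of each other list, examples of no call, and the 5 genes most like Nr1d1 and Arntl. The values of some genes that these rules name are not reported here, although counts include them. Genes chosen after their values were seen are named as such. The alternatives tried were other pseudocounts, filters, scalings, estimates of spread, control livers and leaving out each liver.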

Additional observations from a re-analysis of the deposited data

Results flagged for a closer look

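The difference between ZT6 and ZT2 in unoperated livers was tested against the same pair of hours in operated livers for 35 named genes, by a limma interaction over all genes with Benjamini-Hochberg adjustment, and the genes given here are among those whose differences were unequal. Time since surgery differs along with the hour in the operated livers, and the effects cannot be told apart. The 35 include the 12 largest rises and 12 largest falls in unoperated livers, named for a difference that is itself 1 side of this test. Passing was therefore favoured by the choice, and nothing is read from the counts. Set against sham livers (S4 and S48), 12 of 35 genes passed, 9 of them core clock genes, while 24.8% of all tested genes passed. The log2 difference in unoperated livers less that in sham livers was, among these, -1.29 for BC057022, -1.06 for Nfil3, 4.31 for Dbp, 1.44 for Tef, 1.83 for Cyp2a4, 2.15 for Per3, 1.88 for Rdh9, 1.44 for Cry2, 0.855 for Rora, 1.33 for Hlf and 1.08 for Bhlhe40. Set against PH livers (X28 and X48), 14 of 35 passed, 9 of them core clock genes, while 34.7% of all tested genes passed. The log2 difference in unoperated livers less that in PH livers was, among these, -1.49 for Cml5, -1.31 for Cml3, 2.89 for Dbp, 3.32 for Cyp2a4, 1.30 for Per3, 0.779 for Pla2g12a, 1.21 for Rdh9, 0.777 for Clock, 1.74 for Per1, 1.24 for Cry1, 0.56 for Cry2, 0.826 for Hlf and 1.30 for Bhlhe40. Dbp, Cyp2a4, Per3, Rdh9, Cry2, Hlf and Bhlhe40 passed in both.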

How the results depend on the processing

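The count of 201 genes called between ZT6 and ZT2 depended on the settings. It was 128 with a pseudocount of 1, 66 with libraries scaled to the same median, 315 with 1 coefficient for each set of 3 replicate numbers, and 36 against all 9 C0 livers with the set of 3 as a random effect. With the spread taken from the 6 livers alone it was 2, of which 0 were core clock genes, and 2083 genes had an unadjusted p under 0.05. Against C0 1 to 3, C0 4 to 6 and all 9 C0 it was 2569, 2745 and 1385. Leaving out each liver in turn gave 74 (without C0 replicate 9) to 390 (without C0 replicate 8), and 8 to 12 of the 19 core clock genes. With a pseudocount of 1, 1355 genes were called between C0 7 to 9 and 1 to 3, 1460 between C0 7 to 9 and 4 to 6, 2282 between S4 and S48 and 2385 between X28 and X48. Leaving out a liver gave 364 to 686 genes between C0 1 to 3 and 4 to 6, 1981 to 2785 between 7 to 9 and 1 to 3, 2026 to 2722 between 7 to 9 and 4 to 6, 3276 to 3762 between S4 and S48 and 3169 to 4014 between X28 and X48. Clock, with a log2 difference of 0.00 against C0 7 to 9, was lower at ZT6 against the other control livers (-0.87 against C0 1 to 3, -0.98 against 4 to 6, -0.61 against all 9). Against C0 4 to 6 the log2 difference changed sign for Per1 (-1.74), Usp2 (-1.35) and Mfsd2a (-1.99), the last chosen after its value was seen. It also changed sign for Hlf (-0.052) and Por (-0.32), where it did not pass (limma, adjusted p = 0.925 and 0.29). The cause was not tested. With a pseudocount of 0.1, no filter, a filter on the mean level, or the spread of the unoperated livers, 222, 201, 193 and 198 genes were called. Called under 12 settings (both pseudocounts, no filter, scaling, unoperated spread, sets of 3, each liver left out) were 21 genes, among them Dbp, Tef, Per3, Nr1d2, Cry2, Arntl, Npas2 and Nfil3. No paired analysis was possible because the ZT6 livers carry replicate numbers 1 to 3 and the ZT2 livers 7 to 9. With 3 livers an hour and 20.1 to 23.4 M reads a library, small differences and low levels were measured least well.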
